A study of Drosophila melanogaster with 4 samples.

Results

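The long stretches described here are the parts of the 5 large chromosome arms of *Drosophila melanogaster* (2L, 2R, 3L, 3R and X) in which no region enriched for H3K36me2 was called over at least 50 kb. They were read from the authors' combined list of enriched regions as the intervals between consecutive regions, leaving out the intervals at the arm ends. This gave 520 stretches among 3984 intervals. The members were thus chosen by the positions of the combined regions, and their number, length and spacing in that list are a description, with no test. Chromatin came from wild-type Oregon-R embryos of 14 to 16 hours, cross-linked in 1.8% formaldehyde. The labels give 2 ChIP samples, made with an antibody called H3K36me2 W, and 2 input samples, and each ChIP sample has a list of its own. All groups share this strain, genotype and stage. Whether the 2 ChIP samples stem from different collections of embryos is not stated in the labels, so their spread may be technical only.

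H3K36me2 is the dimethylated form of lysine 36 of histone H3. In *Drosophila* the methyltransferases Mes-4 and Ash1 are known to place it, while Set2 makes the trimethylated form along transcribed genes. Methylation of this lysine accompanies transcription, and it hinders the Polycomb repressive complex from methylating lysine 27 on the same histone tail. Fly chromosomes are known to alternate between clusters of broadly transcribed genes and long domains of genes that are silent in most cells, some bound by Polycomb proteins and many without an active mark.

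Long stretches took up about as much of the large arms as everything else together. In the combined list they held 60.3 of 119 Mb, or 50.7%. Enriched regions held 23.6% of the arms, the 3464 shorter intervals 25.5%, and the arm ends 0.184%. Thus 13.1% of the intervals carried most of the sequence without a region. The same count made from each replicate's own list gave 528 stretches over 62.5 Mb in replicate 1 and 529 over 63.0 Mb in replicate 2, a mean of 52.7% ± 0.298 of the arms (SD, n = 2). The absence of a region means only that the authors' caller reported none. Sequencing depth is unknown, reads of input were not analysed here, and the part played by repeats or unmappable sequence was not tested.

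**Figure D1:**
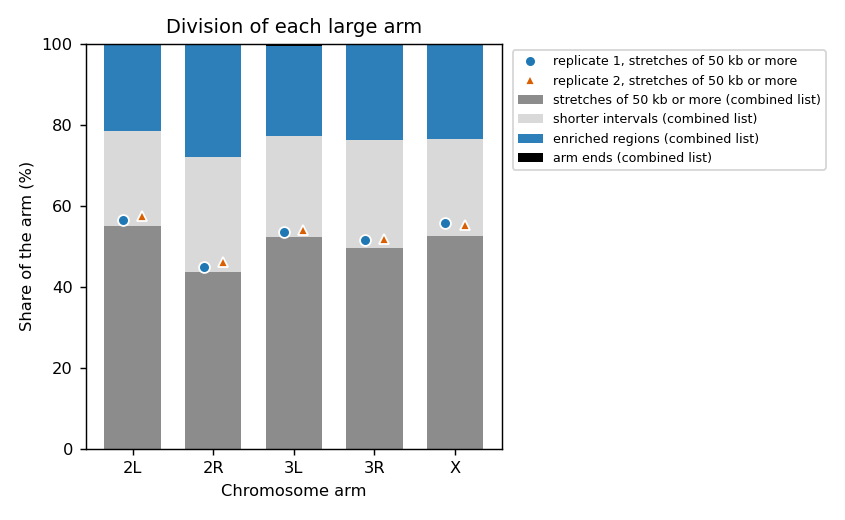
Share of each large arm, in percent of its length, held by stretches of 50 kb or more, by shorter intervals, by enriched regions and by the arm ends (stacked bars, combined list), with the share in long stretches from each replicate's own list as points. The bars for long stretches run from 43.7% on 2R to 54.9% on 2L, and both replicate points lie slightly above the bar on every arm.

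The arms differed in how much they lacked, with 2R lowest. In the combined list the share in long stretches was 43.7% on 2R, 49.5% on 3R, 52.2% on 3L, 52.6% on X and 54.9% on 2L. From the replicates' own lists it was 45.5% ± 0.797 on 2R, 51.7% ± 0.0482 on 3R, 53.7% ± 0.349 on 3L, 55.4% ± 0.342 on X and 56.9% ± 0.713 on 2L (SD, n = 2). Both replicates put the arms in this order, and the distance from 2R to the next arm was larger than the spread between replicates. Numbers per length were closer than shares, from 4.19 stretches per Mb on 3R to 4.60 on 3L. Stretches of 2R were also the shortest. The median length there was 83.7 kb, against 88.7 kb on 3L, 97.5 kb on 3R, 105 kb on 2L and 106 kb on X, and 6 of its 90 stretches reached 200 kb, against 13 of 103 on 2L.

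Most stretches were under 100 kb, and a minority of long ones held much of the sequence. The median length was 96.3 kb, with quartiles of 66.4 and 149 kb. The 277 stretches under 100 kb held 19.6 Mb, the 191 from 100 to 200 kb held 26.6 Mb, and the 52 of 200 kb or more held 14.2 Mb, which is 23.5% of the bases. The longest 151 stretches, the shortest of them of 135 kb, made up 50.1% of the bases. Median lengths in the replicates' own lists were 96.7 and 97.3 kb. The limit itself cut through a continuous range of lengths. The 3 shortest members were X 4377911 to 4427939 of 50029 bp, 3R 14421101 to 14471179 of 50079 bp and 3R 12031373 to 12081573 of 50201 bp. Just outside were 2L 5467111 to 5516869 of 49759 bp, 3R 25447047 to 25496755 of 49709 bp and 2R 2645031 to 2694709 of 49679 bp.

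**Figure D2:**
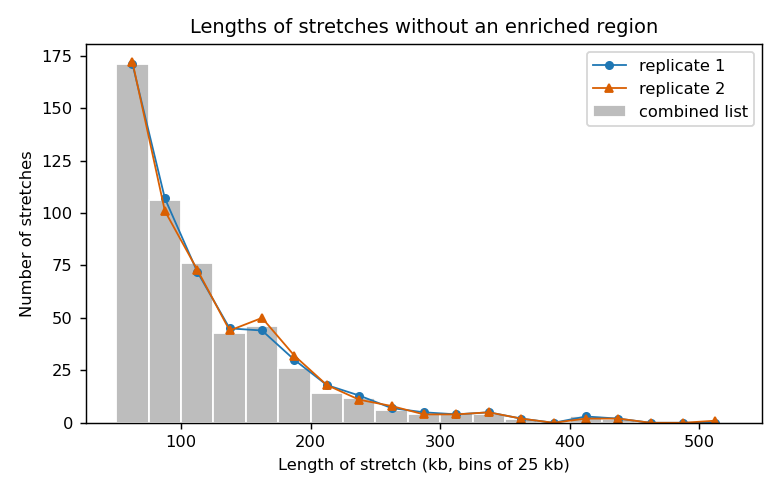
Number of stretches of 50 kb or more (vertical axis) by length in bins of 25 kb (horizontal axis), for the combined list (bars) and for each replicate's own list (points joined by lines). All lists are fullest in the shortest bin and thin out past 200 kb, and replicate 2 has a stretch of 511 kb that the other lists divide.

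The stretches were nearly free of enriched regions in each replicate. Regions of replicate 1 covered 8353 of their bases (0.0138%) and regions of replicate 2 covered 1938 (0.00321%). No base was covered in either replicate in 300 stretches, and both replicates covered some bases in 14. Where replicate 1 had any, in 165 stretches, the median was 23 bp, and in the 69 with bases of replicate 2 it was 14 bp. Because the combined list was made from the same samples, values this low are in part fixed by the way the members were chosen. They were also not particular to long stretches. Regions of replicate 1 covered 0.119% and regions of replicate 2 covered 0.0659% of the bases in the intervals under 50 kb. A single stretch was covered to more than 1%. It was 3L 17848681 to 17900701, of 52.0 kb, with 1462 bp of replicate 1 and 0 bp of replicate 2. That region left a replicate 1 interval of 44.6 kb, and this was the only member without an interval of at least 50 kb in both replicates.

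A comparison that the choice did not fix is that of one replicate with stretches set by the other. Regions of replicate 2 covered 0.153% of the 62.5 Mb in the stretches of replicate 1, against 21.9% of the large arms. In the other direction, regions of replicate 1 covered 0.341% of the 63.0 Mb in the stretches of replicate 2, against 22.5% of the arms. The stretches of one replicate were thus almost empty in the other as well. The values for the arms include the enriched regions themselves, and shorter intervals were not compared between replicates in this way. Of the 528 stretches of replicate 1, 246 held no base of replicate 2 and 29 were covered to more than 1%, the highest to 4.46%. Of the 529 stretches of replicate 2, 64 held no base of replicate 1 and 66 were covered to more than 1%, the highest to 5.21%. The replicates' own stretches had 61.7 Mb in common, which is 98.6% of those of replicate 1 and 97.8% of those of replicate 2.

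Edges of the stretches were close between lists. Of the 1040 edges, 89.4% lay within 1 kb of the edge of the matching interval of replicate 1 and 86.4% within 1 kb of that of replicate 2. The replicate's interval usually reached further out, at 854 edges in replicate 1 and 968 in replicate 2, by a median over all edges of 47 and 103 bp. Edges more than 10 kb apart made up 5.29% and 6.25%. In all, 444 stretches (85.4%) matched an interval of both replicates at a reciprocal overlap of 90%, which means that the shared part was at least 90% of each. The share was 84.5% below 100 kb, 84.3% from 100 to 200 kb and 94.2% from 200 kb. The overlap is relative to length, so the same shift of an edge weighs less in a longer stretch.

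Some of the larger mismatches lay where a replicate lacked a narrow region. Replicate 1 joined 10 pairs of neighbouring stretches into single intervals and replicate 2 joined 11, of which 7 pairs were the same. The regions missing there were narrow, at medians of 1549 bp in replicate 1 and 1651 bp in replicate 2. Their median scores, on the authors' scale, were 0.377 and 0.393, against 1.19 for all regions of the large arms that touch no long stretch. That comparison mixes widths. Combined regions under 2.5 kb had median scores of 0.421 next to a long stretch and 0.412 elsewhere, so the missing regions scored close to others as narrow. The longest joined interval was 2L 14494240 to 15005639 in replicate 2, of 511 kb. In the combined list a region of 4335 bp divided it, with a score of 0.460, and replicate 1 covered 47.5% of that region.

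Some stretches of a replicate had no counterpart among the 520. There were 19 in replicate 1, from 50.6 to 77.4 kb, and 20 in replicate 2, from 50.3 to 89.3 kb. Many of them lay at the same place in both replicates, so these are not all particular to a replicate. The combined list held between 938 and 5061 bp of regions inside those of replicate 1 and between 1269 and 5060 bp inside those of replicate 2, and no piece left between them reached 50 kb. In replicate 1 the longest ones ran at 3R 14877301 to 14954734, 3R 3639531 to 3712326 and X 17645588 to 17716466. In replicate 2 they ran at 2R 14072015 to 14161277, X 8358965 to 8438125 and 3R 3752613 to 3824003. The one of replicate 1 on X had a partner in replicate 2 at X 17645682 to 17716239. The one of replicate 2 on X overlapped X 8381292 to 8438086 of replicate 1.

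The 3 longest stretches of 2L lay near one another, in the part of the arm from 5.65 to 8.41 Mb from its centromere-side end. The longest, 2L 16918567 to 17365819, measured 447 kb in the combined list and in each replicate. A wide, high-scoring region of 29281 bp (score 2.16) ended it on the left and one of 10133 bp (score 1.36) on the right, and both replicates held both. The second, 2L 14605133 to 15005553, measured 400.4 kb in the combined list, while the replicates gave 402 and 511 kb. The difference in replicate 2 is the joining described above, since its left flank is the region of 4335 bp, while the right flank was 7863 bp wide with a score of 1.18. The third, 2L 15771687 to 16171695, measured 400.0 kb, between regions of 8045 bp (score 1.73) and 6659 bp (score 0.897).

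On 2R the longest stretches were shorter and scattered along the arm. At 2R 2140785 to 2500837 the length was 360.1 kb in the combined list and 371 kb in both replicates. The left flank there, of 2321 bp with a score of 0.371, was in neither replicate, and the right flank of 8825 bp (score 1.57) was in both. The second stretch, 2R 12983147 to 13290687, was of 308 kb and stood between regions of 4385 bp (score 1.13) and 4275 bp (score 0.763). The third, 2R 17612803 to 17860079, was of 247 kb and stood between regions of 4755 bp (score 1.35) and 3097 bp (score 1.503). Lengths of these 2 in the replicates differed from the combined list by less than 1 kb.

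On 3L the longest stretch was almost as long as that of 2L. It ran from 3L 18165899 to 18611573 and measured 446 kb in the combined list, while the replicates gave 447 and 446 kb. Its flanks were regions of 5287 bp (score 0.868) and 3193 bp (score 1.19). At 3L 22302059 to 22704937, 1.84 Mb from the centromere-side end, a stretch of 403 kb followed a region of 26743 bp (score 2.09) and ended at one of 2635 bp (score 1.06). The third, 3L 13511537 to 13850649, measured 339 kb in the combined list and 342 kb in both replicates. A region of 19093 bp (score 1.57) stood on its left, and the one on its right, of 1289 bp with a score of 0.340, was in neither replicate.

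The longest stretches of 3R were spread from near its centromere-side end to its outer part. They were 3R 23795115 to 24145737, of 351 kb in all lists, 3R 1833633 to 2165905, of 332 kb, and 3R 19189069 to 19505419, of 316 kb. Flanks of the first were regions of 6417 bp (score 2.10) and 6325 bp (score 1.83), and both replicates held them. The second stood between a region of 7203 bp (score 1.35) and one of 1009 bp (score 0.432) that neither replicate held, and measured 333 kb in replicate 1 and 334 kb in replicate 2. The third had flanks of 4677 bp (score 0.718) and 15381 bp (score 1.79). The latter begins the longest part of any large arm without a long stretch.

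On X, the 2 longest stretches lay within the last 2 Mb at the centromere side. X 21501133 to 21846057 measured 345 kb in all lists, and X 20568481 to 20893771 measured 325 kb in the combined list and replicate 1 and 326 kb in replicate 2. The first followed a region of 31365 bp (score 1.71) and ended at one of 8241 bp (score 1.58). A region of only 2463 bp (score 0.623), present in both replicates, parted the second from another stretch of 170 kb on its left, and 4275 bp (score 1.51) bounded it on the right. The third, X 7236305 to 7555987, measured 320 kb in the combined list and 328 kb in both replicates, between narrow regions of 2177 bp (score 0.476) and 1675 bp (score 0.461), the latter in neither replicate.

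Placement along the arms was uneven and followed no common course. Each arm was divided into 10 equal parts, counted from the end of the assembled arm that faces the centromere. On 2L, parts 3, 4 and 5 held 68.9%, 82.8% and 73.6% in long stretches, and part 4 was fuller than any other part of the 5 arms. Its value in the replicates was 83.6% ± 1.00 (SD, n = 2). On X, part 1, next to the centromere, was the fullest at 77.5%, with 77.6% ± 0.119 (SD, n = 2) in the replicates. On 3L, parts 1 and 8 were fullest, at 68.5% and 67.4%, and part 10, at the telomere side, was the lowest of that arm at 31.9%. On 2R, part 1 was the lowest of its arm at 35.2%, and part 8 the highest at 62.1%. Parts of 3R varied least, from 42.3% to 59.7%.

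**Figure D3:**
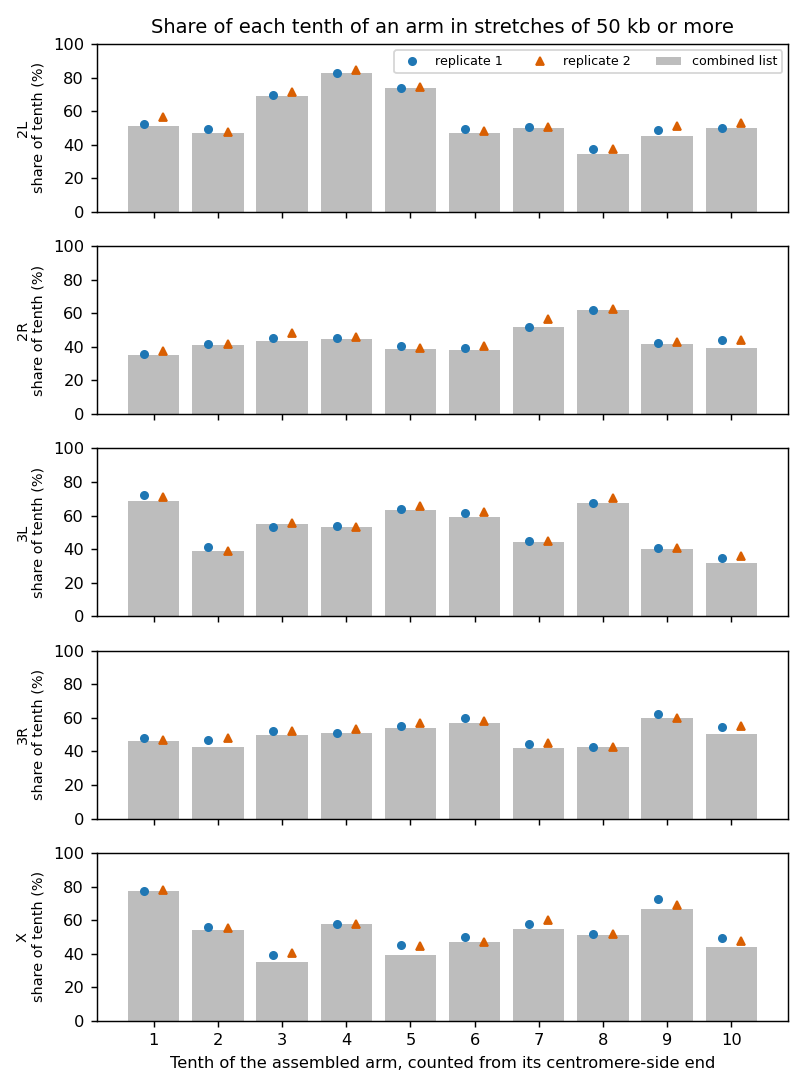
Share, in percent, of each of 10 equal parts of an assembled arm that lies in stretches of 50 kb or more, counted from the centromere-side end (1) to the telomere-side end (10). Bars show the combined list and points the replicates' own lists; part 4 of 2L reaches 82.8% and part 1 of X 77.5%, while part 1 of 2R holds 35.2%.

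The centromere-side megabase differed between arms in the same way. Long stretches held 85.2% of it on X, 69.4% on 3L, 51.6% on 2L, 34.3% on 3R and 29.1% on 2R. In replicate 1 the values were 85.3%, 72.2%, 54.5%, 38.6% and 29.2%, and in replicate 2 they were 85.6%, 69.5%, 58.4%, 34.7% and 34.3%. X and 3L lay above their arm's share and 2R and 3R below it, in every list. At the telomere side the last megabase held 27.0% on 3L and 32.7% on 2L in the combined list, and between 40.5% and 51.5% on the others. The combined value of 3L leaves out the arm-end interval of 135 kb without a region, and is 40.4% with it. In replicates 1 and 2 the last megabase held 28.3% and 32.0% on 3L and 32.7% and 37.8% on 2L. On 2R it held 50.2% in both replicates, above the arm's share, against 40.5% in the combined list, below it. The replicates gave 54.6% and 55.3% on 3R, and 59.5% and 59.4% on X.

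Among 117 windows of 1 Mb the median share in long stretches was 50.8%, with quartiles of 38.6% and 60.5%. The share exceeded 75% in 6 windows, and 4 of them were on 2L. The fullest was 2L 14000001 to 15000000, at 86.3%, with 86.6% in replicate 1 and 89.6% in replicate 2, and enriched regions took up 6.81% of it. Next came 3L 10000001 to 11000000 at 83.3%, with 88.9% and 89.2% in the replicates. No window was without any, since the lowest, 3L 19000001 to 20000000, held 22.6%. That window lies next to the one with the longest stretch of 3L, 3L 18000001 to 19000000, at 73.7%.

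Long stretches often stood close together. Of the 520, 338 (65.0%) lay within 50 kb of another, with 344 of 528 (65.2%) in replicate 1 and 350 of 529 (66.2%) in replicate 2. By arm the share ran from 57.8% on 2R to 69.9% on 2L in the combined list. In replicate 1 it was lowest on 2R at 60.0% and stood at 70.2% on both 2L and 3L. Replicate 2 did not keep this order, with 62.2% on X, 62.4% on 2R, 67.6% on 2L and 73.5% on 3L. Since long stretches held 50.7% of the large arms, many would lie near another by their density alone. Whether 65.0% exceeds what that density gives was not tested. Chaining neighbours at most 50 kb apart gave 129 groups of more than 1 stretch, which held 64.2% of the bases, and left 182 stretches alone. Pairs made up 82 of the groups, 47 had 3 or more members and 9 had 5 or more. Short and long stretches were alike in this. The share with a near neighbour was 65.3% below 100 kb, 65.4% from 100 to 200 kb and 61.5% from 200 kb.

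The 5 groups with the most bases were on 2L, X, 3L and 2R. On 2L, 5 stretches between 15119725 and 16171695 held 953 kb of a span of 1052 kb, with 10 combined regions among them, and each replicate's own regions covered 5.30% and 4.93% of the span. The group with the most members was X 2678799 to 3674877, where 7 stretches held 860.5 kb, or 86.4% of the span, and regions covered 5.67% and 5.25% in the replicates. On 3L, 4 stretches between 4632073 and 5550793 held 835 kb. A second group on X, 4601797 to 5510271, had 6 stretches with 780.5 kb. In the last, 2R 15420897 to 16127215, 5 stretches held 669.6 kb, or 94.8% of the span, and the 7 regions among them had a median width of 3343 bp. Regions covered from 2.93% to 8.65% of these groups in the replicates, values kept low by the choice of groups, since long stretches take up most of each span.

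What parted neighbouring stretches ranged from a lone narrow region to a long part of the arm with many regions. The median distance between neighbours was 72.4 kb over 515 pairs, from 1101 bp to 681 kb. A single region parted 85 pairs, 2 or 3 regions parted 98, 4 to 10 regions parted 212, and 11 or more parted 120. In the last class the median part between stretches was 246 kb long and covered to 46.8%. The longest such part was 3R 19505420 to 20186126, of 681 kb with 37 regions, covered to 49.4% in each replicate. It was followed by 3L 19414234 to 20022562, of 608 kb, covered to 42.9% and 42.2%, and by 2R 208000 to 763848, of 556 kb, covered to 44.4% and 41.5%.

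Regions standing alone between 2 long stretches were mostly of ordinary width, and some were wide. The widest was X 21469768 to 21501132, of 31365 bp, which was 1 region in replicate 1 and 2 in replicate 2, between stretches of 206 and 345 kb. On 3R it was 3R 10704846 to 10730216, of 25371 bp, seen as 2 and 3 regions in the replicates. On 3L it was 3L 21814534 to 21833414, of 18881 bp, and on 2R it was 2R 7340304 to 7351768, of 11465 bp. The one of 2L, 2L 17963042 to 17977866, of 14825 bp, had the highest score of these 5, at 2.48 in the combined list and 2.57 and 2.41 in replicates 1 and 2. It stood between stretches of 242 and 149.6 kb. Each of these 5 regions was covered to between 97.7% and 99.99% in both replicates.

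**Figure D4:**
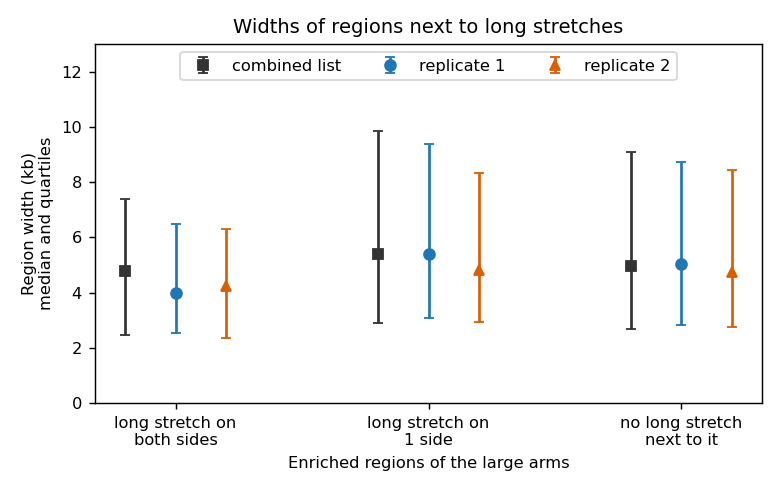
Width in kb (median and quartiles) of enriched regions of the large arms with a long stretch on both sides, on 1 side or on neither, in the combined list and in each replicate's own list. Medians lie between 3992 and 5416 bp and the quartiles overlap throughout; regions with a stretch on both sides have the lowest median in every list.

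As a class, the regions at the edges of long stretches were close in score to those elsewhere on the arms, and slightly wider in the median. The 520 stretches were flanked by 955 regions, 870 on 1 side and 85 on both sides, out of 3990. Flanking regions had median widths and scores of 5289 bp and 1.20, against 4979 bp and 1.19 for the 3035 others. In the replicates' own lists the median widths were 5216 against 5025 bp in replicate 1 and 4799 against 4737.5 bp in replicate 2. The median of flanking regions was thus the higher one in every list, by 310 bp in the combined list, 191 bp in replicate 1 and 61.5 bp in replicate 2. Between replicates the SD of the median was 295 bp for flanking and 203 bp for other regions (n = 2). Both medians were lower in replicate 2, so these SDs do not measure the spread of the difference within a list. In replicate 2 alone the upper quartile went the other way, at 8177 bp for flanking and 8426 bp for other regions. So did its share of regions of 10 kb or more, at 18.7% against 19.1%. No test was made, since the same lists set the stretches. The regions with a stretch on both sides were the narrowest, with medians of 4769 bp in the combined list and 3992 and 4245 bp in replicates 1 and 2. Their median scores were 1.06, 1.13 and 1.15, lower in every list than the 1.19, 1.32 and 1.30 of regions that touch no long stretch. That comparison too mixes widths.

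Flanking and other regions were also close in score at a given width and in how often the replicates held them. Flanking regions made up 22.7% of combined regions under 2.5 kb, 22.9% from 2.5 to 5 kb, 24.6% from 5 to 10 kb and 25.5% of the widest. In the same order the shares were 23.6%, 24.7%, 25.5% and 26.2% in replicate 1. Replicate 2 lacked this rise, with 24.1%, 25.1%, 24.9% and 24.3%. Within these classes their median score differed from that of the others by -0.030 to 0.017 in the combined list, -0.033 to 0.037 in replicate 1 and -0.042 to 0.066 in replicate 2. Both replicates held 86.3% of the flanking and 86.8% of the other regions, and neither held 6.60% and 7.18%. Longer stretches did not have wider or narrower flanks in any regular way, the median being 5497 bp below 100 kb, 5008 bp from 100 to 200 kb and 5232 bp from 200 kb.

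**Figure D5:**
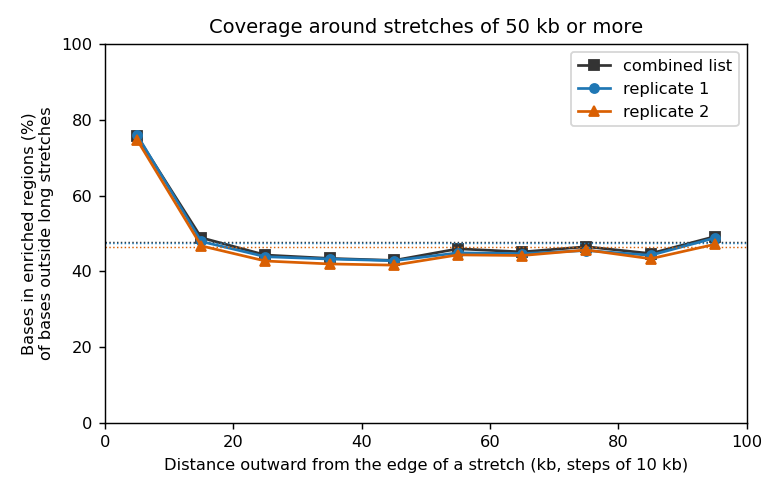
Percentage of bases in enriched regions, among bases outside long stretches, by distance outward from the edges of long stretches in steps of 10 kb, for each list with its own stretches. Dotted lines show each list's mean over all bases outside long stretches, which includes the first step and is raised by it. The first step stands at 74.7% to 76.0%, and from 20 to 90 kb all lists lie below their dotted lines.

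Beyond the first 10 kb, coverage outward from a stretch lay near the mean over all bases outside long stretches. Bases that belong to another long stretch were left out of this count. In the first 10 kb outward 75.3% ± 0.917 of bases lay in regions (SD, n = 2 replicates). That value is set by the definition, since a stretch ends where a region begins. From 10 to 20 kb the share was 47.3% ± 0.823, and from 40 to 50 kb, the lowest step, 42.2% ± 0.831, compared with 47.4% and 46.5% over all bases outside long stretches in replicates 1 and 2. At 90 to 100 kb it was 47.9% ± 1.18. The mean over all bases outside long stretches includes the first step, which raises it. Steps below that mean therefore do not show that the surroundings were covered less than the rest of the arms. After the first step, coverage in each list thus dipped until 40 to 50 kb and was higher again by 90 to 100 kb.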

How the data were processed

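Files of the 2 ChIP samples and a combined list of the series were used; input files were not analysed here. The labels cross the inputs, so that input replicate 2 goes with ChIP replicate 1 and input replicate 1 with ChIP replicate 2. The submitters' processing notes name Bowtie 0.12.7, and the file headers give FlyBase release 5. Not given in the sources used here are the tool and threshold that called regions and the way the replicates were combined. Region starts and ends are 1-based as deposited, and the score that the authors deposited has no stated scale. With no read counts, depth and its effect on precision are unknown.

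Intervals, bases covered, spacing and flanks were counted with pandas 2.3.3 and numpy 2.4.6 under Python 3.11.15, and drawn with matplotlib 3.10.9. Counting was tested on simulated lists. No p-value was computed. Members, limits and the rule for named regions (the 3 longest stretches per arm with flanks, those covered above 1%, those next to the length limit, the 5 largest groups, the widest lone region between stretches per arm, the 3 longest unmatched stretches per replicate) were chosen with earlier results of these data known. Windows and parts without long stretches were named after their values were seen. No gene is named and no sequence printed, since no genome or annotation of release 5 was used here and the gene table belongs to release 6.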

Additional observations from a re-analysis of the deposited data

How the results depend on the processing

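The number of stretches, 520, was 524 without the 348 combined regions found in neither replicate, 539 without the 1078 combined regions of lowest score and 521 with the arm ends. Both sets of regions were counted over all 4311 combined regions, of which 3990 lie on the large arms. By construction the number of stretches was 913 at a minimum of 25 kb and 243 at 100 kb. The share of the large arms, 50.7%, was 62.6% and 34.2% at those limits. It was 51.8% without the regions in neither replicate and 56.0% without the lowest-scoring regions. From a single replicate's list it was 52.5% in replicate 1 and 52.9% in replicate 2. The large arms had 3884 regions in replicate 1, 3971 in replicate 2 and 3990 in the combined list. The cause of the larger share in the replicates was not tested. Coverage of the stretches by replicate regions, 0.00853% on average, was 0.737% without the lowest-scoring regions, which leaves regions inside the stretches by construction, and 0.153% to 0.341% for stretches set by the other replicate alone. The share within 50 kb of another, 65.0%, was 87.4% and 37.9% at the limits of 25 and 100 kb, 69.2% without the lowest-scoring regions, 38.8% and 82.9% with 20 and 100 kb as near, and 65.2% to 66.2% from a single replicate. The median flank width, 5289 bp, was 5701 bp without the regions in neither replicate, 6629 bp without the lowest-scoring regions, and 4799 to 5216 bp from a single replicate; the cause was not tested. The share matched in a replicate, 89.5% on average at a reciprocal overlap of 90%, was 97.9% at 50% and 88.8% to 90.2% for a single replicate. No paired analysis was possible because lists were at hand for the ChIP group alone. Depth is unknown, and its effect on the stretches was not tested.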

Other observations

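Intervals between an arm end and the first or last combined region were left out of the members. Of these 10, a single one was longer than 50 kb: the telomere-side end of 3L, 3L 1 to 134713, of 135 kb. The centromere-side end of 2L, 2L 22965017 to 23011544, had 46.5 kb without a region. The others were between 0.649 and 10.8 kb.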
